A study of Mus musculus with 45 samples.

Results

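The domains described here are short stretches of acetylated histone H3 lysine 9 (H3K9ac) that stand alone on mouse autosomes. They were chosen by geometry, with no use of the counts per domain: an autosomal domain narrower than the median width of all domains, with no other domain edge within 20 kb on either side. The domains themselves were called from sequencing reads, so width and distance depend on signal. The rule was set with earlier results of these data known. The rule found 3855 domains, which is 8.73% of the 44165 domains of the study and 8.89% of the 43341 on autosomes. H3K9ac is added by histone acetyltransferases and removed by histone deacetylases. It marks active promoters as wide, strong domains and active enhancers as narrower, weaker ones, and neurons gain and lose it with activity. A narrow domain far from all others is often taken for a distal regulatory element. Distances to genes were not analysed here: the domains are on mm9 and the gene table at hand is on GRCm38. That reading was therefore not tested, no gene names are given, no sequence is shown, and the tissue could not be checked by marker genes.

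The study pulled down H3K9ac-marked chromatin from hippocampus of 2 mouse models of neurodegeneration and sequenced it (ChIP-seq), to find domains that differ between diseased and control mice. Mice carrying human tau (MAPT) with the P301S mutation, labelled Tau, were set against wild type mice (WT) at 6 months (2 Tau and 3 WT libraries) and 11 months (3 and 3 libraries). The mice at 6 months were females and those at 11 months males, so age and sex changed together. CK-p25 mice, double-transgenic animals in which p25, an activator of Cdk5, is induced (in this line in forebrain neurons), were females set against CK littermates 2 weeks (3 and 3 libraries) and 6 weeks (3 and 3 libraries) after induction, which began at 3 months. They were then 3.5 and 4.5 months old, so time and age changed together here too. The labels do not name the promoter behind either transgene. Hippocampus holds several cell types, and a lower level in such tissue may come from fewer cells of a type or from less acetylation per cell, which cannot be told apart. The labels do not say that each library is a separate animal, so p-values measure the spread between these libraries, which may be technical.

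Narrow isolated domains were weak. Their width ran from 100 to 775 bp, with a median of 396 bp (quartiles 258 and 550 bp), and together they covered 1.59 Mb, or 2.98% of the 53.3 Mb in all domains. The nearest other domain lay at a median of 43.8 kb (quartiles 29.1 and 83 kb), and at most 1521 kb away. Distances were over 20 to 50 kb for 2183 domains, over 50 to 100 kb for 909, over 100 to 500 kb for 719 and over 500 kb for 44. Within the 1 Mb around them lay a median of 17 other domains (quartiles 9 and 29), against 35 (quartiles 20 and 60) around all autosomal domains and 18 (quartiles 10 and 31) around wide isolated ones; fewer neighbours follow from the rule. They took the largest share of a chromosome's domains on chromosome 13, at 13.3%, and the smallest on chromosome 11, at 5.63%. In 1792 cases (46.5%) the next domain on a side was another narrow isolated domain. In 1031 cases both neighbours were wide.

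Their level, in TMM-normalised counts scaled to domain reads (CPM), had a median of 3.54 CPM in the Tau and WT libraries and 3.62 CPM in the CK-p25 and CK libraries. Per length it was 9.55 and 9.75 CPM per kb. Narrow domains with a neighbour within 20 kb (17905 domains) stood at 9.36 and 9.74 CPM per kb, so isolation went with little difference in the density of reads. Wide isolated domains (4666 domains) stood at 21 and 20.5 CPM per kb. In number of reads, the median narrow isolated domain had 14 to 22 reads in a Tau or WT library (4.10 to 6.18 M reads in domains) and 3 to 15 reads in a CK-p25 or CK library (0.996 to 4.13 M). The spread between libraries was larger than for wide isolated domains. Its measure here, the biological coefficient of variation fitted by edgeR, leaves out the counting error that comes with few reads. It had a median of 0.125 in the Tau and WT libraries and 0.122 in the CK-p25 and CK libraries, against 0.0476 and 0.0598 for wide isolated domains. A single log2 fold change had a standard error of, at the median, 0.31 at 11 months, 0.36 at 6 months, 0.37 at 2 weeks and 0.42 at 6 weeks; the smallest log2 change called was 0.32 in size at 11 months, in the domain with the most reads, and 0.88 at 2 weeks.

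All narrow isolated domains together held 1.49% to 1.63% of a library's domain reads. At 11 months they held 1.57% to 1.63% in Tau and 1.49% to 1.56% in WT libraries, with means of 1.59% ± 0.0318 and 1.52% ± 0.0387 (SD, n = 3 each), and the groups were apart. At 6 months the means were 1.53% ± 0.00264 in Tau (SD, n = 2) and 1.54% ± 0.00876 in WT libraries (SD, n = 3). At 2 weeks they were 1.58% ± 0.0324 in CK-p25 and 1.53% ± 0.034 in CK libraries, and at 6 weeks 1.57% ± 0.0202 and 1.60% ± 0.0364 (SD, n = 3 each), with overlap at both times. The cross correlation of each library, which the labels give and which grows with ChIP enrichment, also set the groups apart at 11 months, at 0.228 ± 0.0263 in Tau and 0.313 ± 0.025 in WT libraries. Its part in the difference at 11 months cannot be told apart from genotype by these libraries.

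At 11 months narrow isolated domains both rose and fell in Tau mice. Of the 3844 tested, 129 were higher (3.36%) and 104 lower (2.71%) at an adjusted p under 0.05 (edgeR quasi-likelihood F test, Benjamini-Hochberg over all domains). When counts were scaled to library totals 151 were higher and 82 lower; with loess offsets the numbers were 121 and 119. Over all 44105 domains tested, 4.4% were higher and 7.56% lower, and over narrow domains with a neighbour within 20 kb 2.48% and 2.19% (443 and 391). The excess of losses over all domains lay above 16 CPM (912 higher and 2393 lower), where few narrow domains stand: between 2 and 4 CPM 252 of all domains were higher and 217 lower, and between 4 and 8 CPM 367 and 315. The median log2 change was 1.06 for those called higher and -1.06 for those called lower, against 0.015 for all narrow isolated domains and 0.006 for all domains tested. Wide isolated domains split into 252 higher (5.4%) and 625 lower (13.4%). By level, up to 2 CPM 7.92% of narrow isolated domains were called (17 higher and 4 lower), against 3.96% of narrow domains with a neighbour and 4.52% of all domains. Between 2 and 4 CPM 4.82% of narrow isolated domains were called, against 3.64% of narrow domains with a neighbour and 3.85% of all domains, between 4 and 8 CPM 6.92%, 6.33% and 7.42%, and between 8 and 16 CPM 9.45%, 7.93% and 12.5%. The count of 233 was 109 without Tau replicate 3 and 139 without WT replicate 2. With cross correlation as a covariate 9 remained called (4 higher and 5 lower), and the DESeq2 Wald test called 52 (27 higher and 25 lower) of the 1954 to which it gave an adjusted p.

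**Figure D1:**
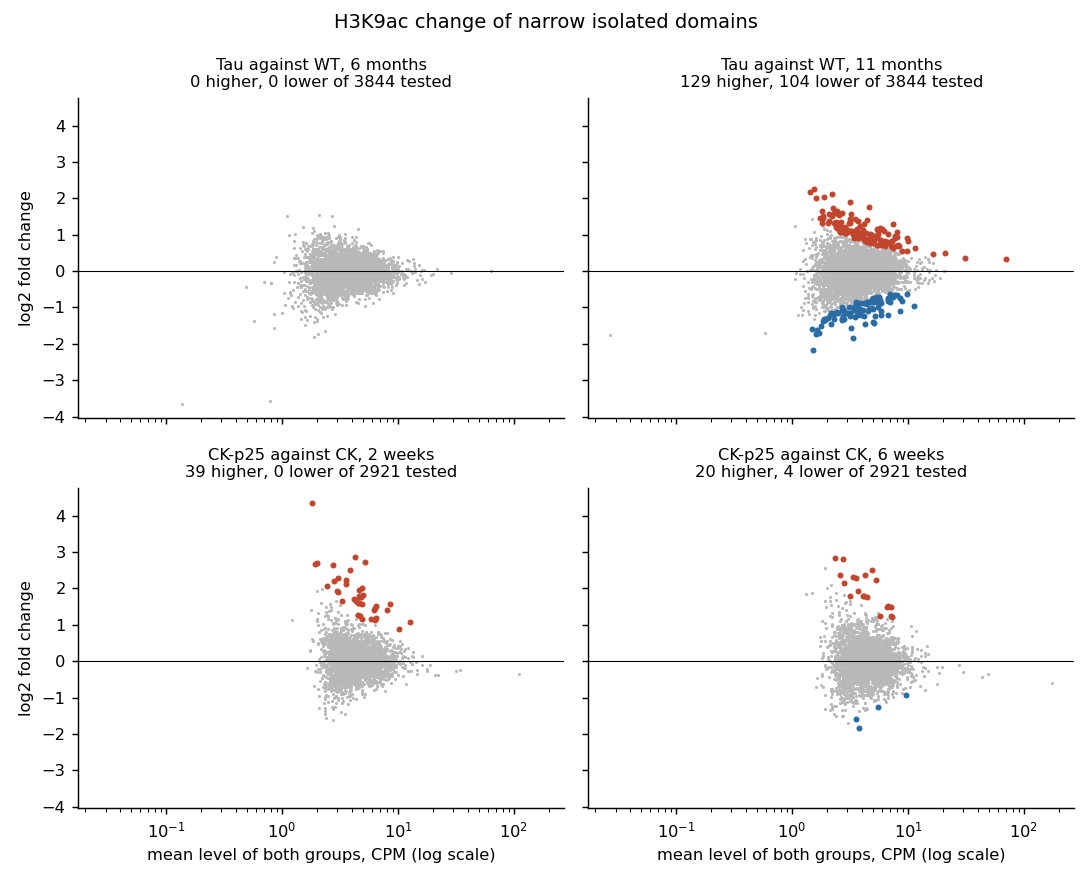
Log2 fold change of each narrow isolated domain (vertical axis) against its mean level over both groups in CPM (horizontal log axis), in the 4 comparisons of a mouse model with its control. Red points were higher and blue points lower in the disease model at an adjusted p under 0.05; at 11 months there are 129 red and 104 blue points (151 and 82 when scaled to library totals), at 6 months there are 0, and at 2 weeks all 39 points called are red.

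The gains with the smallest adjusted p at 11 months included domains well below and somewhat above the median level in WT hippocampus. The first of them, peak24514 (mm9 chromosome 10, 51246307 to 51246948), had 8.94, 4.85 and 7.54 CPM in Tau and 2.31, 2.14 and 1.95 CPM in WT libraries at 11 months. Every Tau library was above every WT library, and the log2 change was 1.75 ± 0.30 (SE), with an adjusted p of 6.66e-06 in edgeR. At 6 months the same domain had 2.76 and 1.7 CPM in Tau and 2.12, 2.36 and 1.21 CPM in WT libraries, which overlapped. It stood in an empty stretch, with only 2 other domains within the 1 Mb around it.

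A second gain, peak41197 (chromosome 18, 52688521 to 52689256), had 12.8, 6.54 and 12.3 CPM in Tau and 4.94, 4.47 and 3.74 CPM in WT libraries at 11 months (log2 1.30 ± 0.23 SE, adjusted p = 1.63e-05, edgeR). Here too the groups were apart, and Tau replicate 2 was the lowest of its group, as it was in peak24514. The domain peak20399 (chromosome 8, 90818223 to 90818712) had 7.3, 2.18 and 5.52 CPM in Tau and 0.824, 1.36 and 1.95 CPM in WT libraries (log2 1.89 ± 0.37 SE, adjusted p = 8.42e-05, edgeR). The remaining gains named for their small adjusted p were smaller in fold and more even between Tau libraries. In peak5143 (chromosome 2, 152934159 to 152934754) the log2 change was 1.08 ± 0.22 and in peak24290 (chromosome 10, 30375080 to 30375711) it was 1.17 ± 0.24 (SE). With cross correlation as a covariate peak24514, peak41197 and peak20399 remained past the threshold, at adjusted p of 0.00596, 0.0104 and 0.0349 in edgeR, while peak5143 and peak24290 had 0.135 and 0.17.

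The 5 losses with the smallest adjusted p at 11 months were in domains whose mean level in WT libraries was above the median of narrow isolated domains. In peak17978 (chromosome 7, 106046176 to 106046742) the level was 1.64, 0.969 and 1.66 CPM in Tau and 5.27, 6.22 and 4.39 CPM in WT libraries (log2 -1.83 ± 0.34 SE, adjusted p = 3.26e-05, edgeR). The domain peak9918 (chromosome 4, 131699723 to 131700437) had 8.94, 5.82 and 7.91 CPM in Tau and 16.3, 12.6 and 15.9 CPM in WT libraries (log2 -0.97 ± 0.18 SE, adjusted p = 4.05e-05, edgeR). In both domains the groups were apart at 11 months. At 6 months both overlapped, with 10.7 and 9.79 CPM in Tau and 10.8, 10.5 and 8.08 CPM in WT libraries for peak9918. The domain peak36938 (chromosome 15, 101648019 to 101648577) had 2.56, 1.94 and 2.21 CPM in Tau and 6.26, 6.22 and 6.18 CPM in WT libraries (log2 -1.45 ± 0.29 SE, adjusted p = 0.000103, edgeR). In peak28048 (chromosome 11, 82247837 to 82248367) the log2 change was -1.44 ± 0.27 and in peak2406 (chromosome 1, 192215720 to 192216372) it was -1.41 ± 0.28 (SE). None of these 5 losses stayed past the threshold with cross correlation as a covariate, where their adjusted p ran from 0.173 to 0.684 (edgeR). The DESeq2 Wald test called all 5, with adjusted p of 0.000708 to 0.00184.

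At 6 months 0 narrow isolated domains were called in edgeR, and 0 in DESeq2. The same held for all domains tested, of which 0% were higher and 0% lower. At an unadjusted p under 0.05 stood 130 narrow isolated domains (3.38%). The domains called higher at 11 months had a median log2 change of -0.00 at 6 months, with 64 of 129 on the same side, and those called lower had a median of 0.03, with 49 of 104 on the same side. A difference in tau effect between the ages was called in 36 narrow isolated domains, with 16 higher at 11 months (0.416%) and 20 lower (0.52%), against 1.02% and 3.21% of all domains tested. The largest of these differences by size among those named were at peak26379 (chromosome 11, 8047504 to 8047662) and peak21824 (chromosome 9, 33850498 to 33850715), both short and weak. The level of peak21824 was 0.548, 0.727 and 0.92 CPM in Tau and 2.31, 2.72 and 2.44 CPM in WT libraries at 11 months. At 6 months the order was the opposite, with 2.96 and 5.11 CPM in Tau and 1.06, 1.29 and 1.82 CPM in WT libraries, and both pairs of groups were apart. Its difference in log2 change was -3.24 ± 0.66 (SE, adjusted p = 0.000557, edgeR). The count of 36 rests on few libraries: it was 11 without Tau replicate 1 and 23 without Tau replicate 2 at 6 months, 23 and 17 without WT replicates 1 and 2 at 6 months, and 64 and 19 without Tau replicates 2 and 3 at 11 months. Leaving out a Tau library at 6 months leaves 1, which is then assumed to vary like the other groups. Scaled to library totals, the split was 19 higher and 16 lower.

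In CK-p25 mice nearly all narrow isolated domains called were gains, as were nearly all narrow domains with a neighbour (124 higher and 2 lower at 2 weeks, 78 and 18 at 6 weeks). At 2 weeks 39 of the 2921 tested were higher (1.34%) and 0 lower, against 1.51% higher and 0.613% lower over all domains tested. Among all domains between 4 and 8 CPM, 124 were higher and 5 lower. The other 934 narrow isolated domains had too few reads for the test. The median log2 change of the 39 was 1.76, the smallest 0.88 and the largest 4.36, and that of all narrow isolated domains 0.016. In either direction 213 (7.29%) had an unadjusted p under 0.05. At 6 weeks 20 were higher (0.685%) and 4 lower (0.137%), against 1.32% and 1.33% of all domains, and the median over all narrow isolated domains was -0.047, against -0.002 over all domains tested. No difference in effect between 6 and 2 weeks was called in a narrow isolated domain (0 in edgeR and in DESeq2, 122 at an unadjusted p under 0.05). Among all domains 0% had a higher and 0.00524% a lower effect at 6 weeks. The count at 2 weeks was 22 without CK-p25 replicate 2 and 18 without CK replicate 2. At 6 weeks it was 12 without CK replicate 2, 11 without CK-p25 replicate 1 and 12 without replicate 3 of both groups, the shallow libraries. The DESeq2 Wald test called 13, all higher, at 2 weeks and 0 at 6 weeks, where it gave an adjusted p to 216 domains only.

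The gain with the smallest adjusted p at 2 weeks, peak38409 (chromosome 16, 97683841 to 97684461), had 8.56, 9.91 and 8.81 CPM in CK-p25 and 0.419, 1.81 and 1.54 CPM in CK libraries. That is a log2 change of 2.73 ± 0.40 (SE, adjusted p = 2.4e-07, edgeR), with the CK-p25 libraries close together and far above all CK libraries. At 6 weeks it had 6.58, 5.02 and 13.9 CPM in CK-p25 and 0.96, 1.97 and 1.03 CPM in CK libraries (log2 2.51 ± 0.50 SE, adjusted p = 0.000436, edgeR). The domain peak12732 (chromosome 5, 121356911 to 121357347) had 5.38, 7.56 and 9.91 CPM in CK-p25 and 0.838, 1.03 and 1.03 CPM in CK libraries at 2 weeks (log2 2.87 ± 0.45 SE, adjusted p = 1.55e-06, edgeR). In both domains the CK level at 2 weeks is that of 1 to 7 reads in a library. No CK library at either time exceeded 1.97 CPM in peak38409 or 1.32 CPM in peak12732. Both domains passed the filter on low counts only through the CK-p25 libraries, so their values are descriptions. The domains peak23755 (chromosome 9, 116153140 to 116153567), peak4524 (chromosome 2, 120289826 to 120290528) and peak3518 (chromosome 2, 45095217 to 45095525) had log2 changes of 2.50 ± 0.46, 1.57 ± 0.29 and 2.02 ± 0.40 (SE) at 2 weeks. None of these 3 passed at 6 weeks, where their log2 changes were 1.25 ± 0.51, 0.96 ± 0.33 and 0.58 ± 0.48 (SE). The domains peak23755 and peak3518 also passed the filter on low counts only through the CK-p25 libraries.

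The largest log2 change at 2 weeks, singled out after its value was seen, was at peak2071 (chromosome 1, 173612276 to 173612569). It held 9, 16 and 11 reads in CK-p25 and 0, 0 and 1 read in CK libraries, a ratio of 28 with a 95% counting interval of 4.72 to 1137 (exact binomial, counting error only). It passed the filter on low counts only through the CK-p25 libraries, so its value is a description, and the DESeq2 Wald test gave an adjusted p of 0.0575. Its neighbour peak2070, a narrow isolated domain 64.6 kb to the left, was also higher at 2 weeks (log2 2.68 ± 0.71 SE, adjusted p = 0.0174, edgeR). Both were higher in Tau mice at 11 months as well, with log2 changes of 2.13 ± 0.48 for peak2071 and 2.02 ± 0.57 for peak2070 (SE). In the tau series peak2071 passed the filter on low counts only through the Tau libraries at 11 months, so this value is a description too. With cross correlation as a covariate its adjusted p at 11 months was 0.8 (edgeR).

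At 6 weeks the 5 smallest adjusted p among gains were those of peak41291, peak38409, peak35908, peak20399 and peak24229. All 5 passed the filter on low counts only through the CK-p25 libraries, so their values are descriptions. In peak41291 (chromosome 18, 60372100 to 60372638) the level was 7.56, 10 and 8.5 CPM in CK-p25 and 0.96, 3.95 and 1.03 CPM in CK libraries (log2 2.24 ± 0.44 SE, adjusted p = 0.000374, edgeR). The domain peak35908 (chromosome 15, 78156588 to 78157010) had 8.29, 5.69 and 8.5 CPM in CK-p25 and 2.24, 0.658 and 0 CPM in CK libraries (log2 2.36 ± 0.48 SE, adjusted p = 0.000638, edgeR). The 4 losses at 6 weeks were smaller. They were peak6219 (log2 -1.84 ± 0.47), peak8948 (-1.59 ± 0.48), peak7884 (-1.25 ± 0.37) and peak31289 (-0.94 ± 0.28, all SE). In peak6219 (chromosome 3, 29034661 to 29035228) the level was 1.95, 1.34 and 1.55 CPM in CK-p25 and 5.12, 10.5 and 2.05 CPM in CK libraries. In peak7884 the groups overlapped. Without both shallow libraries peak31289 and peak7884 missed the threshold, at adjusted p of 0.139 and 0.0674 (edgeR), and peak6219 and peak8948 kept it at 0.00995 and 0.0478.

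Gains overlapped between the mouse models, which share no control libraries and used different antibody lots. Of the 39 narrow isolated domains higher in CK-p25 at 2 weeks, 37 were tested in the Tau and WT libraries, and 22 of these (59.5%) were among those higher in Tau at 11 months, as were 3.36% of all narrow isolated domains tested there. All 37 had a log2 change above 0 there, with a median of 1.07, against 0.015 for all narrow isolated domains. The 22 were 19.5% of the 113 domains higher in Tau at 11 months that could be tested in CK-p25 mice. Some of the 39, among them peak38409, peak12732 and peak2071, passed the filter on low counts only through the CK-p25 libraries. In the tau series peak12732 and peak2071 passed it only through the Tau libraries at 11 months. The overlap was not counted over all domains or over narrow domains with a neighbour. It can therefore not be read as particular to narrow isolated domains. Of the gains at 6 weeks 8 were shared with Tau at 11 months, which is 44.4% of 18 and 7.08% of 113. At 6 months the 37 domains had a median log2 change of 0.00 in Tau mice, with 19 on the same side. A shared loss was called in 1 domain, peak7884, lower in Tau at 11 months (log2 -0.79 ± 0.26 SE) and in CK-p25 at 6 weeks. Its groups overlapped in both comparisons. At 11 months its adjusted p was 0.116 with cross correlation as a covariate (edgeR) and 0.121 by the DESeq2 Wald test. The number of shared gains rests on single libraries in both models. It was 9 without Tau replicate 3, 13 without Tau replicate 1, 13 without WT replicate 2, 11 without CK replicate 2 and 14 without CK-p25 replicate 2, against 22 with all. It was 25 without the shallow libraries at 6 weeks, 2 with cross correlation as a covariate in both models, 0 by the DESeq2 Wald test, which gave only 3 of its 13 gains at 2 weeks an adjusted p in Tau mice, and 5 by DESeq2 with no filter on its adjusted p.

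**Figure D2:**
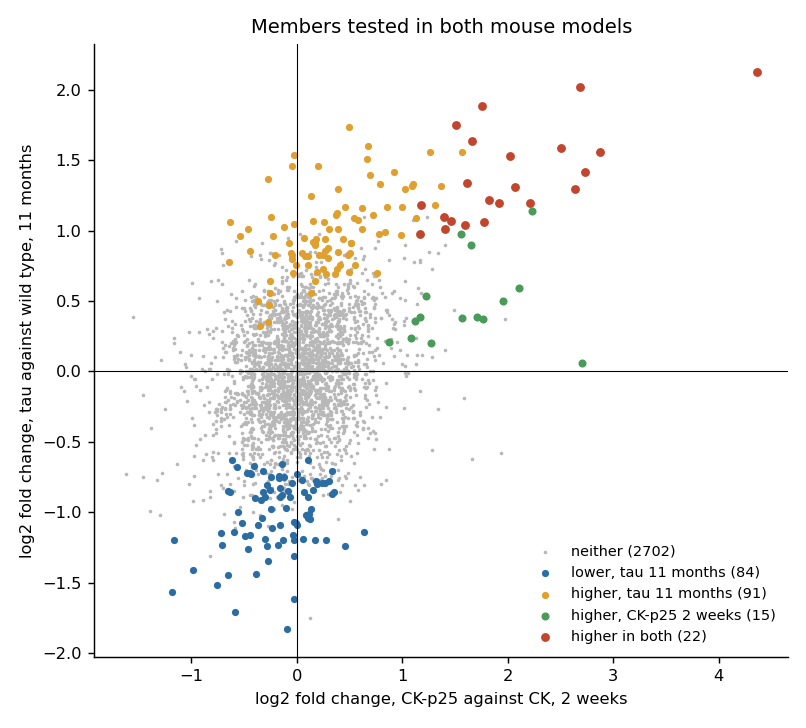
Log2 fold change of Tau against WT at 11 months (vertical axis) against that of CK-p25 against CK at 2 weeks (horizontal axis), for each narrow isolated domain tested in both models. The 22 red points, higher in both, lie in the upper right corner, and the 15 points called in CK-p25 alone (green) also lie above 0 on the Tau axis; orange and blue points were called higher (91) or lower (84) in Tau alone.

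The level was higher in Tau mice at 11 months, and in CK-p25 mice at both times, in 6 domains: peak24514, peak20399, peak38409, peak12732, peak41291 and peak38538. Their log2 changes ran from 1.07 to 1.89 in Tau at 11 months, from 1.46 to 2.87 in CK-p25 at 2 weeks and from 1.49 to 2.51 at 6 weeks. At 6 months they ran from -0.17 to 0.98 in Tau, with no adjusted p under 1. None of the 6 was called in the test of the difference between ages, where adjusted p ran from 0.113 to 0.822 (edgeR). A gain limited to 11 months is thus not shown for them. In the CK-p25 series all 6 passed the filter on low counts only through the CK-p25 libraries. In the tau series peak12732 and peak41291 passed it only through the Tau libraries at 11 months, so their gains there are descriptions too. In each of these 6 domains all disease libraries stood above all control libraries in the 3 comparisons, and Tau replicate 2 was the lowest Tau library at 11 months. The domain peak38538 (chromosome 17, 8421869 to 8422529) had 6.57, 3.15 and 4.97 CPM in Tau and 1.98, 3.11 and 2.11 CPM in WT libraries at 11 months. In CK-p25 mice it had 7.1, 8.6 and 12.5 CPM, against 3.35, 3.36 and 3.08 CPM in CK mice, at 2 weeks. At 6 weeks it had 10.7, 9.38 and 12.4 CPM in CK-p25 and 4.16, 3.29 and 3.08 CPM in CK libraries. The number shared by all 3 was 5 without both shallow libraries, where peak12732 missed the threshold at 6 weeks (adjusted p = 0.0804, edgeR). It was 1, peak20399, with cross correlation as a covariate, 0 by the DESeq2 Wald test, and 1, peak38409, by DESeq2 with no filter on its adjusted p. Domains called higher in all 3 comparisons were not counted over all domains or over narrow domains with a neighbour. The 6 can therefore not be read as particular to narrow isolated domains.

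**Figure D3:**
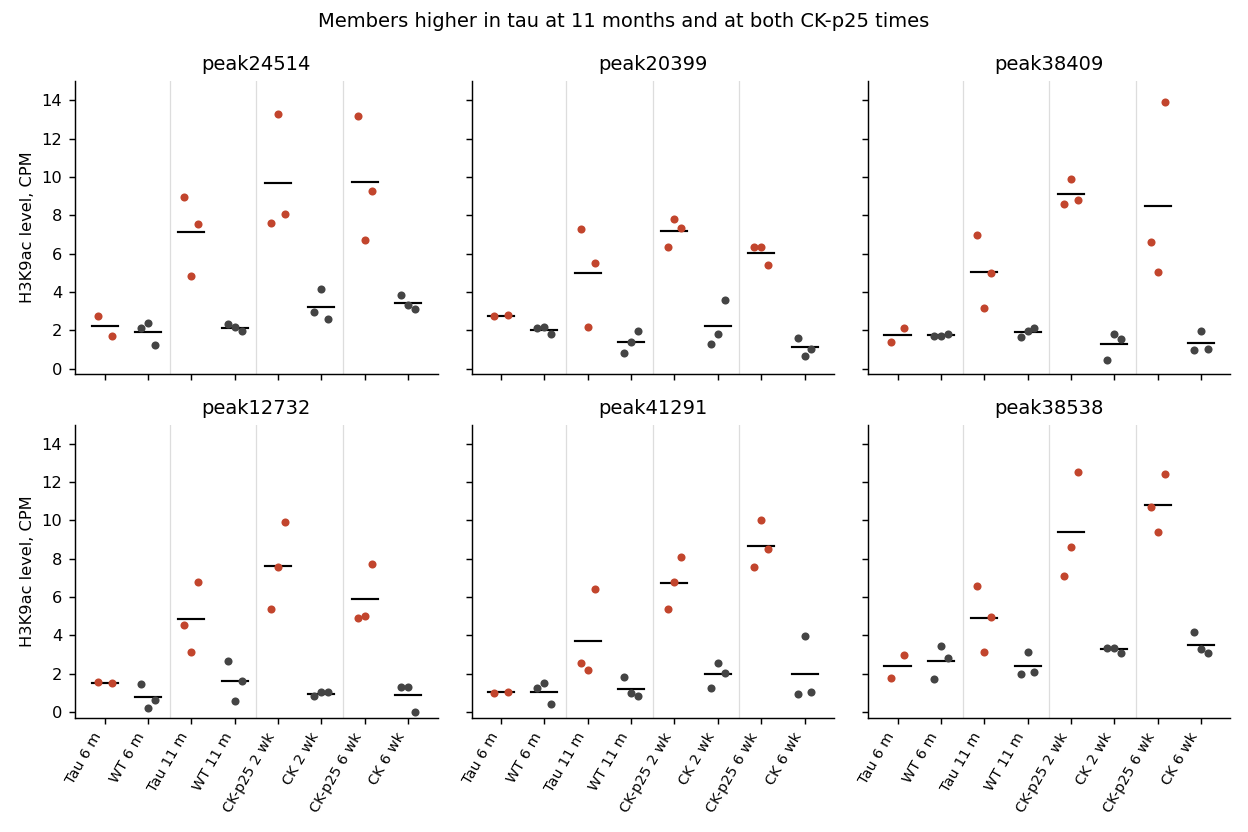
Level in CPM of the 6 narrow isolated domains that rose in all 3 comparisons, by group. Points are libraries (red for Tau and CK-p25, dark for WT and CK) and bars are group means. In the pairs at 11 months, 2 weeks and 6 weeks all red points lie above the dark ones. At 6 months the groups overlap in 4 domains, and Tau lies above WT in peak20399 and peak12732.

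Some called domains had a neighbour, over 20 kb away, that changed in the same direction. At 11 months 28 of the 129 domains higher in Tau (21.7%) had a next domain that was also higher, and 11 (8.53%) one that was lower. Over all 3844 tested, the shares were 8.35% and 19.7%. Of the 104 domains lower in Tau, 33 (31.7%) had a next domain that was also lower and 0 one that was higher. At 2 weeks 8 of 39 gains (20.5%) had a next domain that was higher, against 3.22% of all tested, and at 6 weeks 5 of 20 (25%), against 2.36%. An example is peak38409, whose right neighbour peak38410 (3181 bp wide, 71.6 kb away) had log2 changes of 0.71 ± 0.12 in Tau at 11 months and 1.15 ± 0.12 in CK-p25 at 2 weeks (SE). The left neighbour of peak12732, peak12731 (1608 bp wide, 93.3 kb away), had 0.72 ± 0.13 in Tau at 11 months (SE) and was also higher in CK-p25 at 2 and 6 weeks (adjusted p = 8.69e-13 and 1.03e-06, edgeR). That of peak23755, peak23754 (3154 bp wide, 68 kb away), had 0.59 ± 0.08 in Tau at 11 months and 0.85 ± 0.11 in CK-p25 at 2 weeks (SE). All of these neighbour values passed the threshold.

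The direction of change at 11 months differed with distance to the nearest domain. Among narrow isolated domains with the nearest domain over 20 to 50 kb away, 83 were higher and 52 lower in Tau, with a median log2 change of 0.044. Over 50 to 100 kb, 31 were higher and 20 lower (median -0.004). Beyond 100 kb, 15 were higher and 32 lower (median -0.062), while the share called was nearly the same in the 3 classes, at 6.2%, 5.63% and 6.18%. Wide isolated domains, which the rule leaves out, split into 150 higher and 233 lower, 63 and 180, and 39 and 212 in the same 3 classes. In CK-p25 mice the medians of narrow isolated domains in the same 3 distance classes were -0.026, -0.053 and -0.106 at 6 weeks and 0.021, 0.014 and 0.008 at 2 weeks. At 6 months in Tau mice nothing was called in any class. By number of other domains within the 1 Mb around, the split at 11 months had no steady order. It was 11 higher and 13 lower at 0 to 5 domains and 67 and 50 at 6 to 20. At 21 to 40 it was 29 and 31, and over 40 it was 22 and 10. The medians in these classes were -0.040, 0.013, 0.011 and 0.078.

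**Figure D4:**
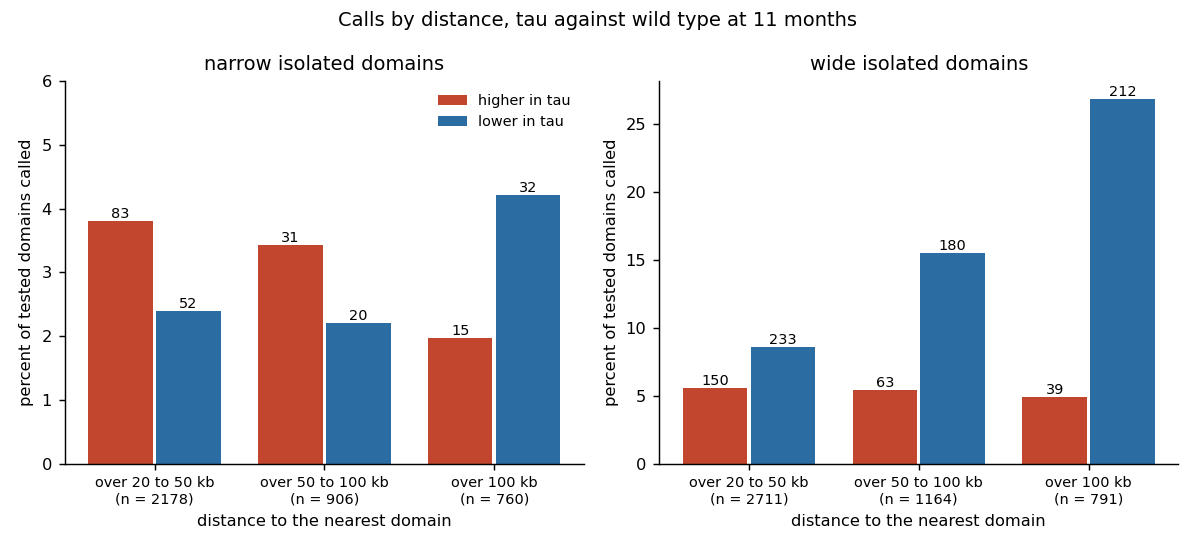
Percent of tested domains called higher (red) or lower (blue) in Tau against WT at 11 months, by distance to the nearest domain, for narrow isolated domains (left) and wide isolated domains (right). The vertical axes of the panels differ in range and numbers on the bars are domains; among narrow ones gains outnumber losses 83 to 52 at 20 to 50 kb, and losses outnumber gains 32 to 15 beyond 100 kb.

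The 763 narrow isolated domains beyond 100 kb held 19.2%, 19.7% and 19.3% of the reads of all narrow isolated domains in Tau and 20.4%, 20.4% and 20.2% in WT libraries at 11 months. Every Tau library was below every WT library. At 6 months the shares were 20.2% and 20.1% in Tau and 20.5%, 20.2% and 20.5% in WT libraries, which overlapped. At 6 weeks they were 19.5%, 20.4% and 19.1% in CK-p25 and 20.4%, 20.8% and 20.2% in CK libraries, with overlap, and at 2 weeks both groups averaged 20.1%. Losses outnumbered gains beyond 100 kb under each of the 19 other fits tried, and gains outnumbered losses at 20 to 50 kb under each of them. The counts beyond 100 kb were 8 higher and 10 lower without Tau replicate 3, 14 and 16 without Tau replicate 1, 12 and 16 without WT replicate 2, 15 and 21 without WT replicate 3, 22 and 25 when scaled to library totals (median -0.014), and 0 and 1 with cross correlation as a covariate (median -0.129). At 20 to 50 kb they were 32 and 30 without Tau replicate 3 and 47 and 32 without WT replicate 2. The difference between distance classes was not tested.

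At 11 months wider ones among the narrow isolated domains were called more often. The share called was 3.62% up to 200 bp, 4.73% at 201 to 400 bp, 6.35% at 401 to 600 bp and 9.86% at 601 to 775 bp, and reads per domain grow with width. In the same width classes it was 1.47%, 1.34%, 1.22% and 1.51% at 2 weeks, with no steady rise, and 0%, 0.617%, 0.783% and 1.23% at 6 weeks. At the width limit, peak5932, just inside, had a log2 change of -0.16 ± 0.20 at 11 months, and peak559, just outside and as isolated, had -0.31 ± 0.20 (SE). At the gap limit, peak33168, just inside, had -0.53 ± 0.41 and peak10056, just outside, 0.20 ± 0.37 (SE).

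A few narrow isolated domains were far above the rest. In the Tau and WT libraries 137 of 3855 exceeded 8 CPM and 10 exceeded 16 CPM, of which 4 were called at 11 months, all higher in Tau. Over all domains above 16 CPM, 22.2% were called (912 higher and 2393 lower of 14901). The highest narrow isolated domain, peak21848 (chromosome 9, 35112626 to 35113257), averaged 107 CPM over all libraries and 169 CPM per kb. At 11 months it had 70.3, 94.3 and 71.6 CPM in Tau and 61.4, 70 and 55.8 CPM in WT libraries (log2 0.32 ± 0.08 SE, adjusted p = 0.00589, edgeR). Its reads hardly followed the depth of a library: it held 299 to 389 reads in every library, a 1.3-fold range, while library totals ranged 6.2-fold and its level 5.5-fold. The highest level, 307 CPM, was in CK replicate 3 at 6 weeks, which had the fewest domain reads and the lowest cross correlation, 0.064. For comparison, the median reads of a narrow isolated domain ranged 7.33-fold over libraries. With cross correlation as a covariate the adjusted p of peak21848 at 11 months was 0.974 (edgeR). The next 2 by level, peak8813 (chromosome 4, 70038981 to 70039466) and peak15228 (chromosome 6, 103598893 to 103599422), were also higher in Tau at 11 months, by 0.64 ± 0.18 and 0.35 ± 0.12 (log2, SE), and had adjusted p of 0.892 and 0.651 with the covariate. In both the Tau and WT libraries overlapped at 11 months, and the DESeq2 Wald test gave adjusted p of 0.021 and 0.16. The part of ChIP enrichment in these 3 gains was not tested beyond that fit.

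**Figure D5:**
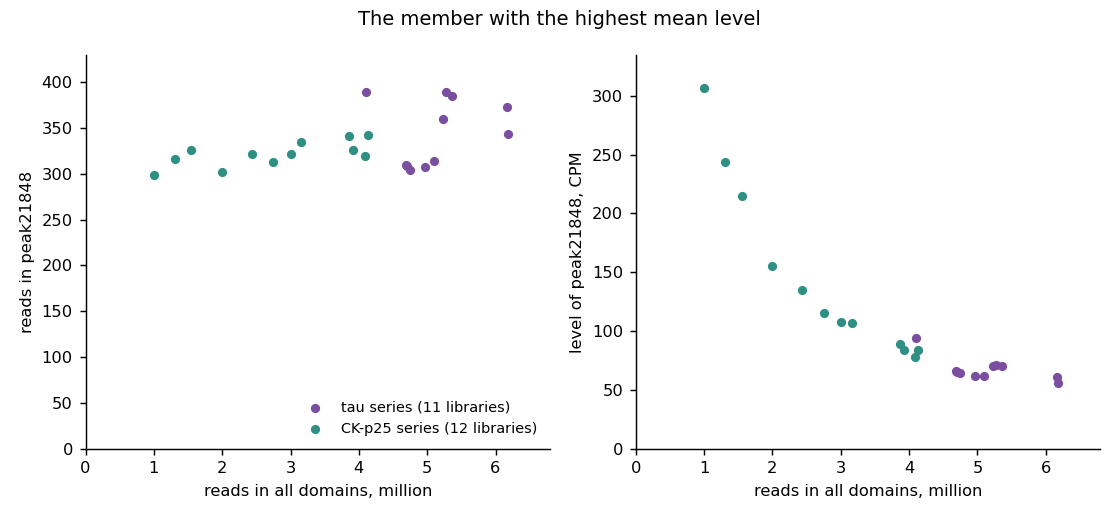
Reads in peak21848 (left, vertical axis) and its level in CPM (right, vertical axis) against the reads of each library in all domains, in M, with Tau and WT libraries in purple and CK-p25 and CK libraries in green. Reads stay between 299 and 389 over a 6.2-fold range of totals, so the level is highest, at 307 CPM, in the shallowest library.

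The 3 most isolated domains were peak20634 (chromosome 8, 1521 kb from its nearest domain), peak4016 (chromosome 2) and peak2576 (chromosome 2). All 3 had 0 other domains within the 1 Mb around them. None was called in Tau mice, and peak20634, the only one of them with enough reads for the test in CK-p25 mice, was not called there. In peak20634 the level was 3.83, 2.91 and 1.29 CPM in Tau and 3.13, 3.31 and 1.79 CPM in WT libraries at 11 months. At 6 weeks it was 1.71, 3.35 and 2.32 CPM in CK-p25 and 5.12, 7.24 and 6.15 CPM in CK libraries, with the groups apart and an adjusted p of 0.0952 (edgeR).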

How the data were processed

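H3K9ac ChIP-seq libraries of mouse hippocampus (23 libraries) were analysed, and the 22 input libraries were not used here. The authors deposited raw read counts per domain for 1 common set of domains, and the domain positions; per the series' design text input DNA served as a control in peak calling. The tools were BWA, Picard 1.1175 and MACS2 on mm9, per the submitters' processing notes, which state no roles or pooling. Sequencing was single-end, per the labels' protocols. Coordinates are 1-based on mm9. The members, lists and distance classes were chosen with earlier results of these data known.

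Counts were fitted over all domains with edgeR 4.0.16 in R 4.3.3 (TMM, filterByExpr by group, robust quasi-likelihood F test, two-sided, one mean per group), with separate fits for tau (11 libraries) and CK-p25 (12 libraries). P-values were adjusted by Benjamini-Hochberg over every domain tested (threshold 0.05). Standard errors are the size of the log2 change over the square root of F. Named domains were, by rule, the 5 with the smallest adjusted p in each comparison and direction, those called alike in tau at 11 months and both CK-p25 times, the 3 highest, the 3 most isolated and those at the limits of the rule. Depth was 0.996 to 6.18 M domain reads per library. Alternatives were other scalings, no filter, DESeq2 1.42.0, a replicate block, cross correlation as covariate, a threshold of 0.01, other limits of the rule and each library left out. Leaving out both shallow 6-week libraries, and DESeq2 without its independent filtering, were added after seeing the data. A share or level of 0 allows up to 3 reads, and intervals cover counting error only.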

Additional observations from a re-analysis of the deposited data

Results flagged for a closer look

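In 36 narrow isolated domains the tau effect at 11 months differed from that at 6 months, by the test of the difference itself (edgeR, adjusted p under 0.05). That is 0.937% of the narrow isolated domains tested, against 4.23% of all domains tested. Age and sex changed together between these libraries, and the part of either was not tested. Of the 5 domains with the smallest adjusted p in each direction, the difference in log2 change (11 minus 6 months) was above 0 at peak13368 (1.95), peak41197 (1.62), peak12001 (1.28), peak26379 (2.91) and peak34768 (1.16). It was below 0 at peak21824 (-3.24), peak2406 (-1.77), peak7682 (-1.97), peak4431 (-1.55) and peak33042 (-1.33). In peak13368 the level was 5.66, 5.82 and 6.44 CPM in Tau and 2.64, 2.14 and 2.44 CPM in WT libraries at 11 months, and 2.37 and 2.77 CPM in Tau and 3.39, 5.14 and 3.64 CPM in WT libraries at 6 months, so both pairs of groups were apart, in opposite directions. With cross correlation as a covariate peak41197, peak12001 and peak21824 remained past the threshold, at adjusted p of 0.0223, 0.0271 and 0.0387 (edgeR). All others named here missed it, at adjusted p from 0.0646 (peak4431) to 0.719 (peak33042, edgeR).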

How the results depend on the processing

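The count of narrow isolated domains called was 233 for tau at 11 months, 0 at 6 months, 39 for CK-p25 at 2 weeks, 24 at 6 weeks, 36 for the difference between ages and 0 for that between times. Both counts of 0 were 0 in each alternative run. With cross correlation as a covariate the count was 9 at 11 months and 6 for the difference between ages. DESeq2 called 52 at 11 months, 13 at 2 weeks, 0 at 6 weeks and 2 for the difference between ages, and without its independent filtering 62, 13, 3 and 5. At a threshold of 0.01 the counts were 85 at 11 months, 10 at 6 weeks and 10 for the difference between ages. With a gap of 50 kb in the rule they were 98, 22, 10 and 18 (11 months, 2 weeks, 6 weeks, difference between ages), with a gap of 10 kb 37 at 6 weeks, and with a width under 400 bp 86, 14, 6 and 9; these rules hold fewer or more domains. Without both shallow libraries 12 were called at 6 weeks. The mean share of reads in narrow isolated domains was 1.56%, against 2.37% with a gap of 10 kb and 0.675% with 50 kb. Leaving out 1 library at a time gave 109 to 251 at 11 months, 18 to 46 at 2 weeks, 11 to 25 at 6 weeks and 11 to 64 for the difference between ages.

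Samples share only a replicate number: over 11 same-numbered pairs of libraries the correlation of deviations ran from -0.0119 to 0.0516. Over 22 pairs with different numbers it ran from -0.0491 to 0.0485, so the ranges overlapped. Of 22 libraries 15 matched best with their own number, which is a hint from the data and not the design. With a replicate block 232 were called at 11 months, 37 at 2 weeks, 20 at 6 weeks, 26 for the difference between ages and 0 otherwise. Of 45 named log2 changes 0 changed sign in any alternative and 12 stayed past the threshold in all of them. Most were named for a small adjusted p in these same libraries, and the alternatives refit much the same counts. A kept sign was therefore likely in advance. With cross correlation as a covariate 20 of 45 fell short of the threshold. The scalings moved the median of all domains by at most 0.047 (log2). The cause of the lost calls was not tested.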

Other observations

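In 4 narrow isolated domains, singled out after their values were seen, the level differed between sets of libraries rather than between disease and control. In peak38688 (chromosome 17, 13744804 to 13745120) the 6 libraries at 11 months, Tau and WT alike, held 0 or 1 read each, while the 5 at 6 months held 21 to 30 and the 12 CK-p25 and CK libraries 10 to 51. In peak30686 (chromosome 12) the level was 1.15 to 3.15 CPM at 11 months, 7.87 to 11.1 CPM at 6 months and 9.55 to 24.6 CPM in the CK-p25 and CK libraries. In peak30487 (chromosome 12) the order was the opposite, with 3.7 to 6.79 CPM at 11 months, 1.18 to 1.5 CPM at 6 months and 0 to 2.51 CPM in the CK-p25 and CK libraries. In peak14264 (chromosome 6) the 11 Tau and WT libraries held 0 to 2 reads each and the CK-p25 and CK libraries 0 to 13. The libraries at 11 months are the males, so age and sex cannot be told apart here, and the antibody lot changes with the mouse model.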
